A study of Mus musculus with 4 samples.

Results

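The microRNAs (miRNAs) named miR-669, miR-467, miR-466 and miR-297 were examined in mouse embryonic fibroblasts (MEFs) with and without Lats2, a kinase of the Hippo pathway. Every miRNA name of the array with 1 of these 4 numbers, any letter suffix and any arm was taken, whatever its signal, which gave 39 of the 650 names (3 of miR-297, 14 of miR-466, 10 of miR-467 and 12 of miR-669). They were read by 106 of 1857 probes. Total RNA of 4 untreated cultures was hybridised to 4 Agilent arrays in a single colour, Cy3. The Lats2-/- (KO) samples were clone #112-C at PDL 70 (replicate 1) and PDL 96 (replicate 2), and the Lats2+/+ (WT) littermate samples were clone #112-K at PDL 68 (replicate 1) and PDL 90 (replicate 2), all of strain C57BL/6J. PDL is taken here to mean population doubling level. Each genotype was 1 clone at 2 ages in culture, so genotype and clone cannot be told apart, and the p-values below measure only the spread between arrays of a clone.

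Mouse miRNAs of this group mostly lie in a large array of tandem copies inside an intron of Sfmbt2, a Polycomb group gene that is expressed from the paternal allele in extraembryonic tissues. The array is a rodent feature, and its miRNAs are best known from embryonic stem cells, early embryos and placenta. Each hairpin can give a mature miRNA from its 5′ arm and another from its 3′ arm, and bases 2 to 8 of a mature miRNA, the seed, are the main contact with its targets. Many copies carry stretches of alternating U and G on one arm and A and C on the other, so members resemble each other far more than other miRNAs do.

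The name of the group as an Sfmbt2 intron cluster held for part of the members. Per the file headers the probe positions are those of mm9. Of the 39 names, 34 had a listed position in a stretch of 51.3 kb, chr2:10388586-10439867, and 31 of them had no listed position elsewhere. miR-669n was listed on chromosome 2 and chromosome 3, miR-669l also on chromosome 9, and miR-669b also on chromosomes 7, 10 and 13. The other 5 names lay only on other chromosomes, with miR-466i on chromosome 13, miR-466j on 10, miR-466k on 3, miR-467f on 11 and miR-467g on 5. No probe of another miRNA was listed in the stretch. In a RefSeq gene table of assembly GRCm38.p6, which gives gene spans and no introns, 71 of the 72 miRNA genes within Sfmbt2 were of these 4 families, 37 members matched a hairpin by name and 31 had a hairpin inside Sfmbt2. The 6 matched names with none there were miR-466i, miR-466j, miR-466k, miR-467f, miR-467g and miR-669n. miR-466a-3p and miR-466a-5p matched no hairpin by name, and miR-466f had 3 of its 4 hairpins inside Sfmbt2. The 31 names with a hairpin there are thus not the same set as the 31 with no listed position elsewhere. Copies cannot be told apart by these probes. Within the stretch 12 names had several listed positions, and miR-466a-3p and miR-669a had 10, which is also the most that the files list for any member. The RefSeq table held 12 miR-669a hairpins inside Sfmbt2, so the listed positions need not include every copy. The probes of 7 names stand for 13 further names of the same families, and the miR-466a-3p probes also cover miR-466b-3p, miR-466c-3p, miR-466e-3p and miR-466b-3-3p.

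Probes of 3 names well above background, and of 2 with the detection flag on some arrays, are shown first, 5′ to 3′, because the repeats in them bear on what can be told apart. Capitals mark the longest run of alternating G and T or alternating A and C.
miR-669f, 18 bases: atacGTGTGTGTGTatgt
miR-669f, 19 bases: atacGTGTGTGTGTatgta
miR-669a, 20 bases: acatgaacatgCACACACAa
miR-466a-3p, 17 bases: tcttaTGTGTGcgtgta
miR-467a*, 17 bases: gtgtagGTGTGTGTatg
miR-467f, 17 bases: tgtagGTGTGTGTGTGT
A probe is complementary to the 3′ part of its miRNA, so that the 18 bases of the first miR-669f probe pair with the RNA acauacacacacacguau. Its listed position is chr2:10388918-10388934. The listed intervals were 1 base shorter than the probe for 71 of the 106 probes and of full length for the other 35. An alternating run of 6 or more bases, searched as G with T or A with C on the printed strand, was found in 75 of 106 probes of the group (70.8%) and in 49 of 1751 probes of other names (2.80%), against 6.68% of all probes. The run length of 6 was chosen after the sequences were seen.

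Of the 39 names, 4 were well above background on at least 1 array of these fibroblasts, and 6 more had only the looser detection flag described below. In RNA of a whole culture, fewer cells with a miRNA and less of it per cell cannot be told apart. Signals are given in scaled units, the background-subtracted intensity after each array was scaled to its bright probes, and a probe was counted as well above background where the scanner software flagged more than 0.5 of its usable spots. By this rule miR-669f, miR-669a and miR-467b were well above background on all 4 arrays, and miR-466a-3p on KO replicate 2 and both WT arrays. The count was therefore 3 and 4 names on the KO arrays and 4 and 4 names on the WT arrays. Over all 650 names the share well above background was 24.2% and 24.9% on the KO arrays and 19.2% and 20.2% on the WT arrays. In both KO arrays and neither WT array 36 names of the whole array were well above background, and 2 were so in both WT arrays and neither KO array. None of these was a member.

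miR-669f read 101 and 103 units in KO replicates 1 and 2, against 97.3 and 116 units in WT replicates 1 and 2. Means were 102 ± 1.14 units in KO and 107 ± 13.1 units in WT (SD, n = 2 each), and both KO arrays lay between the WT arrays. This miRNA has a single listed position, near the start of the chromosome 2 stretch. miR-669a, which is reported to restrain muscle differentiation through MyoD in mouse cardiac progenitors, read 32.5 and 37.7 units in KO, against 34.2 and 38.6 units in WT. The ranges overlapped, with means of 35.1 ± 3.65 units in KO and 36.4 ± 3.12 units in WT (SD, n = 2 each).

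miR-467b, described in mouse macrophages as a regulator of lipoprotein lipase, read 23.1 and 22.5 units in KO, against 22.7 and 25.1 units in WT. Again the groups overlapped, and the highest array was WT replicate 2. miR-466a-3p read 15.9 and 15.8 units in KO, against 16.7 and 17.7 units in WT. Here both KO arrays were below both WT arrays. Its 17-base probe was near the limit of detection, with the flag on 40.0% and 55.6% of usable spots on the KO arrays and 90.0% and 60.0% on the WT arrays. The dimmest probes well above background read 15.2 and 12.5 units on the KO arrays and 14.8 and 15.5 units on the WT arrays.

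**Figure D1:**
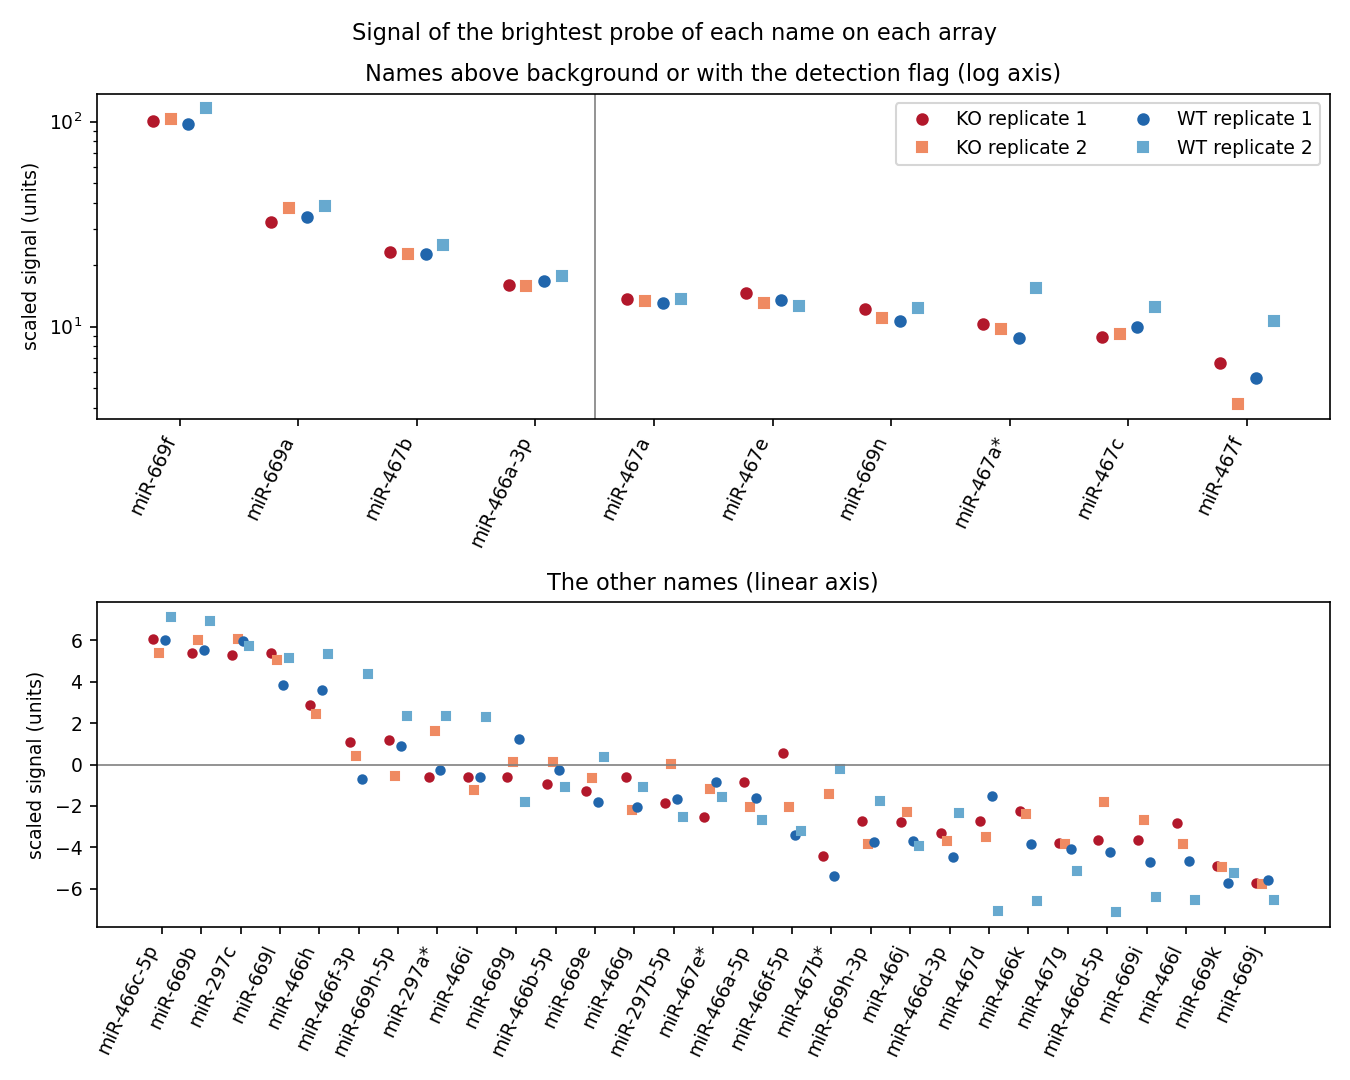
Scaled signal (units) of the brightest probe of each of the 39 names on each array, KO replicates left of WT replicates. The upper panel has a log axis and a line between the 4 names well above background and the 6 names with the detection flag only, and the lower panel, with a linear axis, shows the other 29 names between -7.14 and 7.15 units.

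Another 6 names carried the software's detection flag on at least 1 array and were never well above background. This flag is a looser call made per miRNA. miR-467a read 13.7 and 13.3 units in KO, against 13.0 and 13.7 units in WT, miR-467e read 14.5 and 13.0 units in KO, against 13.5 and 12.6 units in WT, and miR-669n read 12.2 and 11.0 units in KO, against 10.7 and 12.3 units in WT. These 3 names had the flag on all 4 arrays. The flag was less regular for the other 3. miR-467c read 8.88 and 9.25 units in KO, against 9.90 and 12.5 units in WT, and lacked the flag on KO replicate 1. miR-467a* read 10.3 and 9.69 units in KO, against 8.84 and 15.5 units in WT, with the flag on KO replicate 2 and WT replicate 2. miR-467f read 6.62 and 4.19 units in KO, against 5.64 and 10.7 units in WT, with the flag on WT replicate 2 alone. For miR-467c, miR-467a* and miR-467f WT replicate 2 was thus the highest array. By this flag the counts were 7 and 9 names in KO and 8 and 10 names in WT. On both arrays of at least 1 genotype it was set for 8 of the 39 names and for 184 of all 650 names.

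The remaining 29 names had neither call on any array. Their brightest probes read -7.14 to 7.15 units, where negative control spots had medians of 3.18 and 2.63 units on the KO arrays and 2.81 and 3.39 units on the WT arrays. miR-297c, miR-466c-5p, miR-669b and miR-669l read 3.86 to 7.15 units over the 4 arrays. miR-466l, described in mouse macrophages as a miRNA that sustains interleukin-10 mRNA, read -2.84 and -3.86 units in KO, against -4.67 and -6.53 units in WT. The miR-466l values lie below the lowest negative control spot on KO replicate 1 (-2.43 units) and on WT replicates 1 and 2 (-2.15 and -2.72 units). On KO replicate 2 the lowest such spot read -4.32 units. The negative controls thus do not mark the lower end of the background for such probes.

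Of the 38 names with several probes, the longest probe read higher than the shortest on all 4 arrays for 30, and the order varied between arrays for 7. miR-669f alone ran the other way on all arrays. Its 19-base probe read 20.7 and 27.0 units in KO, against 24.9 and 26.9 units in WT, so that the 18-base probe was 4.89 and 3.80 times as bright on the KO arrays and 3.90 and 4.31 times on the WT arrays. The 2 probes differ only in the added 3′ base shown above. For miR-467b the 18-base probe was well above background on all arrays, whereas the 17-base probe read 8.79 and 9.88 units in KO, against 9.14 and 13.5 units in WT, and was so on none. The miR-669a probes of 19 and 20 bases were both well above background on every array.

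**Figure D2:**
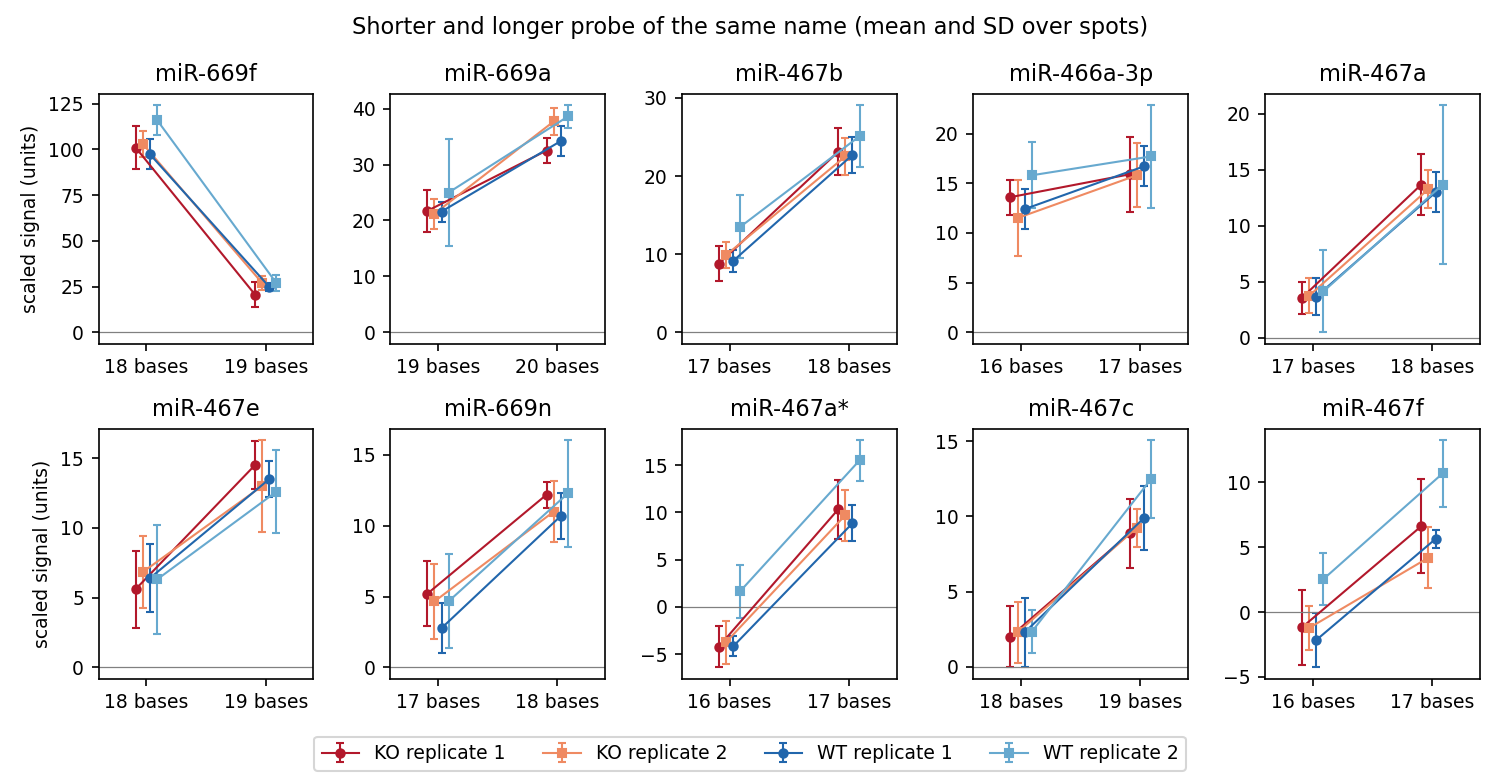
Scaled signal (units) of the shorter and the longer probe of the 10 names well above background or with the detection flag, with the mean and SD over the spots of a probe on each array (7 to 10 usable spots). Lines join the probes of a name on an array, and miR-669f is the only panel in which the shorter probe is brighter, at 97.3 to 116 units.

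The longest probes of miR-467a to miR-467e share a core of 11 bases, in capitals, which was found by comparing these probes. They are shown because names that share the core ranged from well above background to no call at all.
miR-467a: cgCATATACATGCaggca
miR-467b: CATATACATGCaggcact
miR-467c: caCATATACATGCacgcac
miR-467d: cgCATATACATGCgcgc
miR-467e: aCATATACATGCtcacact
miR-669l: aCATATACATGCacacac
The core, searched on the printed strand, was in 13 of 1857 probes (0.700%), all of these 6 names. Of these, only miR-467b was well above background. miR-467a, miR-467c and miR-467e had the detection flag on some or all arrays, at 8.88 to 14.5 units. The printed miR-467a and miR-467b probes share more bases than the core. The miR-467d probe read -3.80 and -2.64 units in KO, against -4.53 and -7.62 units in WT. The miR-669l probe read 5.39 and 5.04 units in KO, against 3.86 and 5.13 units in WT. Neither of them was called detected on any array.

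A probe of 1 name lay wholly inside a probe of another in 3 pairs of names, miR-669e in miR-669a, miR-466f-5p in miR-669b and miR-466f-3p in miR-466i. The first pair is shown with the shared bases in capitals.
miR-669e, 17 bases: ATGAACATGCACACACA
miR-669a, 19 bases: acATGAACATGCACACACA
The 17-base miR-669e probe read -1.28 and -0.654 units in KO, against -1.80 and 0.380 units in WT, while the 19-base miR-669a probe, with 2 more bases at its 5′ end, read 21.7 and 21.2 units in KO, against 21.6 and 25.0 units in WT. The miR-669e probe was at background and the miR-669a probe well above it on all 4 arrays. The 20-base probes of miR-466a-5p and miR-466c-5p differ by T11C, counted from the 5′ end of the probe with the miR-466a-5p base first, as capitals show.
miR-466a-5p: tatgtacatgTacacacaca
miR-466c-5p: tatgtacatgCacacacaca
miR-466a-5p read -0.846 and -2.04 units in KO, against -1.63 and -2.69 units in WT, and miR-466c-5p read 6.07 and 5.40 units in KO, against 6.01 and 7.15 units in WT. Neither was called detected.

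Mature sequences of 5 members were found in RefSeq (build GRCm38.p6). They are printed with the seed in capitals, since each of the 5 has its own seed.
miR-466j: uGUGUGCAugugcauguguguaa
miR-466k: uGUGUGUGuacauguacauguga
miR-467f: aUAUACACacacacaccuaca
miR-467g: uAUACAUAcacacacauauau
miR-669n: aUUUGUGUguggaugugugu
All of these lie outside Sfmbt2 in that table. Among the 158 other names of the array with a RefSeq mature sequence, 0 shared 1 of these seeds. The probes of these 5 names pair with the 3′ end of the mature sequence.

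By the members' own names, both arms of a hairpin were on the array in 7 cases. Shared probes add arms of other hairpins, such as miR-467d* under the miR-467a* probes and miR-466b-3p under the miR-466a-3p probes, whose signal cannot be assigned to 1 hairpin. For miR-466a the 3p arm was well above background and the 5p arm was not, and for miR-467b the unstarred arm was so while miR-467b* read -4.40 and -1.42 units in KO, against -5.40 and -0.201 units in WT. For miR-467e the unstarred arm had the detection flag and miR-467e* read -2.55 and -1.18 units in KO, against -0.845 and -1.57 units in WT. miR-467a and miR-467a* both had the flag on KO replicate 2 and WT replicate 2. For miR-466d, miR-466f and miR-669h neither arm was detected.

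Along the chromosome 2 stretch miR-669f lay apart from the other names well above background, whose listed positions were interleaved. miR-669f was listed at 0.33 kb from its start and miR-467b at 14.30 kb. The 10 listed copies of miR-669a ran from 7.50 to 34.40 kb and those of miR-466a-3p from 7.32 to 29.37 kb. As 10 is the most listed for any member, these ends need not be those of all copies. Near miR-467b, a copy of miR-466a-3p was listed at 14.63 kb and a copy of miR-669a at 14.82 kb. The nearest listed neighbour of miR-669f was miR-669e, at 0.58 kb, which was at background. From 42.07 kb to the end, where miR-297c, miR-466d, miR-466g, miR-466h, miR-466l, miR-669h and miR-669i lie, only miR-669n had a detection flag. The miR-669n probes are also listed on chromosome 3 and cover miR-669c, so this flag cannot be placed in the stretch.

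**Figure D3:**
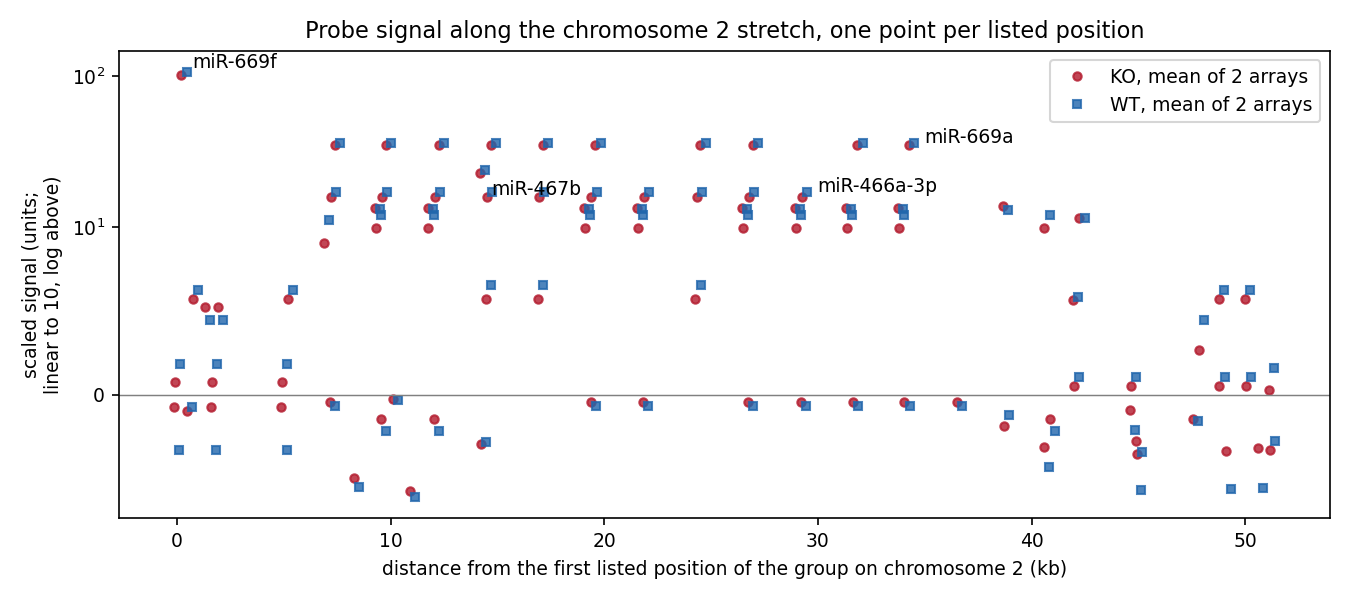
Scaled signal (units, linear to 10 and log above) against distance (kb) from the first listed position of the group on chromosome 2, with 1 point per listed position, the mean of 2 KO arrays left of the mean of 2 WT arrays. Repeated copies of a name carry the same value, since they share a probe, and miR-669f at 0.33 kb is the point at 102 and 107 units.

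The question of the study's comparison is which miRNAs differ in MEFs without Lats2. Of the 4 members tested, 0 were called. The test was limma's on log2 scaled signals over 159 names, those that both KO arrays or both WT arrays showed well above background, with Benjamini-Hochberg adjustment and calls under 0.05. Of all tested names 57.9% were called, 69 higher and 23 lower in KO. Names that entered through the KO arrays alone are favoured to read higher in KO, which bears on this split. With a filter on all 4 arrays it was 42 higher and 21 lower over 115 names. At an unadjusted p under 0.05 there were 0 members too, where all of the 57.9% of names called above also pass. The methods' t-test with Benjamini-Hochberg adjustment also gave 0 members, where 35.2% of the tested names were called. miR-466a-3p entered the test through the WT arrays only, which favours a lower value in KO, and with a filter on all 4 arrays it was not tested.

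The 4 log2 fold changes of KO over WT were close to 0 under the main scaling. miR-669f had -0.06 ± 0.11 (SE, limma adjusted p = 0.683), a fold of 0.960 with a 95% interval of 0.757 to 1.22. miR-669a had -0.05 ± 0.12 (limma adjusted p = 0.715), with an interval in fold of 0.747 to 1.24. miR-467b had -0.06 ± 0.08 (limma adjusted p = 0.547), with an interval of 0.808 to 1.13. miR-466a-3p had -0.12 ± 0.06 (limma adjusted p = 0.186), with an interval of 0.801 to 1.05. Under this scaling each interval leaves out a fold of 2 in either direction. Of the 4, only miR-466a-3p had both KO arrays on 1 side of both WT arrays, where 79.9% of the tested names did.

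The direction and the calls rested on how arrays were scaled. The median log2 fold change was -0.06 over the 4 members and 0.31 over all 159 tested names. Without scaling between arrays the members' median was 0.15, positive for all 4, and with scaling to the median of bright probes it was -0.46. The median of all tested names moved with it, to 0.52 and -0.09. The members lay 0.37 below it each time, which was fixed in advance because these scalings shift nearly all names alike. Over the settings with 4 arrays and 1 value per name, the difference ran from -1.04 with quantile normalization to -0.06 with no filter. It was -0.23 with a filter on all 4 arrays, where the median of all 115 names was 0.17. The main filter also takes names through the KO arrays alone, which favours a higher median over all names. With scaling to the median miR-466a-3p was called lower in KO (log2 fold change -0.53, limma adjusted p = 0.0435), where 46.5% of the tested names were called, 38 higher and 36 lower. With quantile normalization miR-466a-3p (-0.96) and miR-467b (-0.93) were called lower (limma adjusted p = 0.0102 each), where 58.5% were called, 50 higher and 43 lower, and the members lay 1.04 below the median of all names. Both calls of miR-466a-3p rest on its entry through the WT arrays, so they are given as values and not as support for a difference. miR-467b was well above background on all 4 arrays, so this limit does not apply to it. It was called under quantile normalization alone and not with scaling to the median (limma adjusted p = 0.0761). Without scaling the split of calls was 92 higher and 15 lower.

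**Figure D4:**
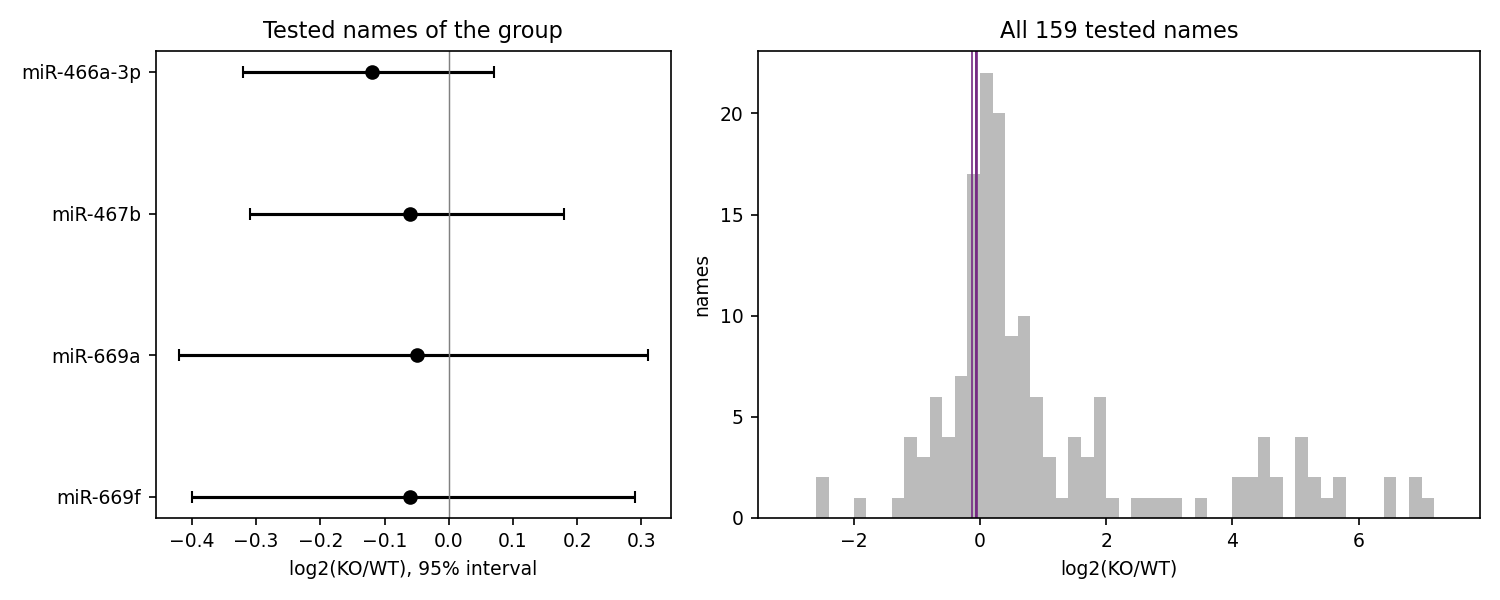
Left, log2(KO/WT) of the 4 tested members under the main scaling, with 95% intervals that all cross 0. Right, the number of names by log2(KO/WT) over the 159 tested names, with lines at the 4 members. The members lie between -0.12 and -0.05. The median of all names, which include those that passed the filter through the KO arrays alone, is 0.31.

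With the detection flag as the filter 8 members were tested and 0 called, where 52.7% of 184 names were. The added log2 fold changes were 0.02 ± 0.07 for miR-467a, -0.29 ± 0.14 for miR-467c, 0.07 ± 0.09 for miR-467e and 0.01 ± 0.11 for miR-669n (SE, n = 2 arrays a group). miR-467c (limma adjusted p = 0.173) passed this filter through the WT arrays only, since KO replicate 1 lacked the flag, and such a filter favours a lower value in KO. With each probe tested on its own, 6 probes of the members passed the filter and 0 were called, where 53.1% of 273 probes were. The 2 miR-669f probes had log2 fold changes of -0.06 and -0.13.

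The arrays of a clone differed in PDL, and these values are given with no test. The array of the higher over that of the lower PDL gave 1.02 in KO and 1.19 in WT for miR-669f, 1.16 in KO and 1.13 in WT for miR-669a, and 0.973 in KO and a ratio above 1 in WT for miR-467b.

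WT replicate 2 was most often the highest array for dim probes rich in G and T, a base composition more frequent in this group than in other names. Such probes, with at least 75% G and T, made up 34 of 106 probes of the group (32.1%) and 41 of 1751 probes of other names (2.34%), and the share of 75% was chosen after the data were seen. Among probes with no spot well above background, the 30 of the group had medians of -3.99 and -3.99 units on the KO arrays and -4.57 and -2.12 units on the WT arrays, and WT replicate 2 was the highest array for 21 of them. The 30 such probes of other names had medians of -4.73 and -4.63 units on the KO arrays and -5.45 and -0.166 units on the WT arrays, with WT replicate 2 the highest for 25. In the group's 50 dim probes of mixed composition, WT replicate 2 was the lowest array for 36 (72.0%), against 31.1% of 1274 such probes of other names. miR-467a* (88.2% G and T) and miR-467f (94.1%), read above as highest in WT replicate 2, are rich in G and T. So are the 18-base miR-669f probe (77.8%) and the 17-base miR-466a-3p probe (76.5%). Of these, only the miR-467f probe is among the 30 dim ones, since the others had spots well above background. The part of base composition in the values of these probes was not tested. WT replicate 2 was also the highest array for probes of other composition, namely those of miR-467c (26.3% G and T), miR-467b (38.9%) and miR-669a (20.0%). Among dim probes of other names it was the highest for 47.3% of those of mixed composition and 43.8% of those with at most 25% G and T, against 83.3% of those rich in G and T. Without WT replicate 2 the log2 fold change was 0.14 for miR-669f, 0.11 for miR-669a, 0.08 for miR-467b and -0.01 for miR-466a-3p.

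**Figure D5:**
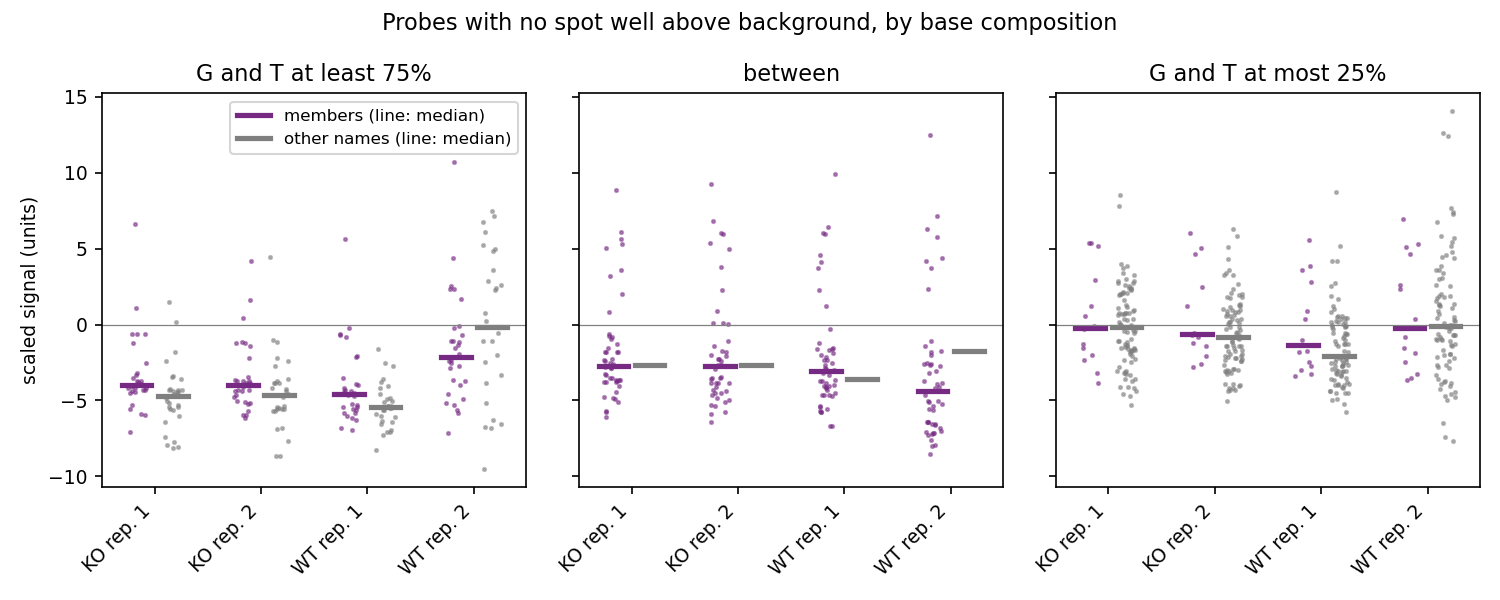
Scaled signal (units) of probes with no spot well above background, in 3 classes of base composition, on the KO arrays (left) and WT arrays (right) of each panel. Points are single probes (those of other names are left out of the middle panel, which has 1274) and lines are medians, and the medians of G and T rich probes are highest on WT replicate 2, at -2.12 units for the group and -0.166 units for other names.

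The 3 other tested names whose profile over the 4 arrays was nearest to that of miR-669f, by Euclidean distance of log2 values centred on their mean, were let-7e (distance 0.0596), let-7a (0.133) and miR-484 (0.149), of 155 compared. let-7e read 831 and 842 units in KO, against 809 and 912 units in WT. Its highest array was WT replicate 2 as well. Likeness over 4 arrays is a description only.

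For the cells themselves, 7 of 8 fibroblast and mesenchymal miRNAs were well above background on every array. None of the 9 pluripotent and trophoblast miRNAs (the miR-290 and miR-302 clusters) was, nor any of the epithelial, neural, blood, endothelial and liver lists, and of the 4 muscle miRNAs miR-206 was on all arrays. No spot of a member was saturated, and 15 to 23 of the 780 spots of the group were left out on each array for an outlier flag. All 4 arrays were on 1 slide and in 1 scan, so no such batch separates the groups.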

How the data were processed

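The authors extracted spot values with Agilent Feature Extraction 10.5.1.1, per the file headers. The deposited values are intensity per spot on a linear scale, background-subtracted, below 0 where dim and not normalized between arrays, beside other columns of flags of 0 or 1 deposited for each spot. The deposited series matrix holds the same intensity, within 0.495%.

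Control and outlier spots were left out, spots of a probe averaged, and arrays scaled to the 75th percentile of 192 bright probes, each well above background on every array (531 and 562 units in KO, 488 and 458 units in WT). Values under 1 unit were set to 1 before log2. A name was represented by its brightest probe. KO was compared with WT by limma 3.58.1 in R 4.3.3 (two-sided, no covariates), after a test on simulated data. Tables were made with Python and pandas. Every member well above background on any array was named, with dim ones by count, range or sequence group, names with a member's seed and the 3 nearest profiles. Names given beyond that rule were chosen after their values were seen. Members and lists were chosen with earlier results of these data known. The number of arrays limits the precision.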

Additional observations from a re-analysis of the deposited data

How the results depend on the processing

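Among the tested members 0 were called under 18 of 20 alternatives, with 1 called under median scaling and 2 under quantile normalization. The median log2 fold change of the members (-0.06) was 0.15 without scaling, -0.46 with median scaling, -0.90 with quantile normalization and -0.39 with total signal per miRNA. Leaving out each array in turn leaves 1 array in a group, which is then assumed to vary like the other group, so the 0 calls say little and the values are given for their size. The medians ran from -0.12 to 0.09. The members then ranged from -0.15 to 0.14 (miR-669f), -0.16 to 0.13 (miR-669a), -0.11 to 0.08 (miR-467b) and -0.14 to -0.01 (miR-466a-3p), and the sign turned for miR-669a and miR-669f without KO replicate 1 and for miR-467b, miR-669a and miR-669f without WT replicate 2. Without scaling the sign turned for miR-466a-3p (0.08), miR-467b (0.14), miR-669a (0.15) and miR-669f (0.15). With PDL order as a replicate block there were 0 calls among the members, where 44.0% of all tested names were called, and the members' median was -0.06. The detection flag in place of the spot flag gave 7 and 9 names in KO and 8 and 10 in WT. On both arrays of at least 1 genotype it was set for 8 members, against 184 of all 650 names. Over all names, 92 calls became 56 with the methods' t-test after adjustment and 60 of 650 with no filter. Scaling to the 75th percentile over all probes could not be run, since that percentile was below 0 on WT replicate 1 (2.98 and 2.90 units in KO against -0.104 and 4.66 in WT). The cause was not tested for any of these. The signal of most names of the group lies near background, which limits most values here.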
